A study of Mus musculus with 6 samples.

Results

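The 39 genes described here are interferon-stimulated genes, transcripts that cells make when interferon reaches their surface. They were taken by gene symbol from the 45777 genes of the deposited table, where each of the 39 symbols matched 1 row. Messenger RNA was sequenced from epididymal white adipose tissue, the fat pad beside the epididymis, of C57BL/6 mice fasted for 24 h. By the labels, 3 libraries carry the genotype Adipoq-Cre; Pak4 flox/flox (labelled KO, adipose tissue-specific) and 3 carry Pak4 flox/flox without the Cre (labelled WT), so loxP sites flank Pak4 in both groups. The Adipoq promoter drives Cre recombinase in adipocytes, and the other cells of the pad are not targeted by it. The labels name adipocytes as the cell type, but the protocol describes excised tissue. They give no age, and nothing in them ties each replicate to its own animal; p-values therefore reflect only how far these 6 libraries vary. The comparison asks how loss of Pak4, a serine/threonine kinase that CDC42-type GTPases bind, alters the transcripts of fasted fat.

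Type I interferons bind the receptor pair IFNAR1 and IFNAR2 and activate the kinases JAK1 and TYK2. STAT2 and IRF9 then take part in a complex that binds the interferon-stimulated response element (ISRE) in target promoters. Interferon gamma acts through its own receptor, and many of its targets carry a gamma-activated site (GAS). In adipose tissue, adipocytes, macrophages, lymphocytes, endothelium and mesothelium can all respond to interferons, so a library of the whole pad sums their transcripts, and fewer cells of a type cannot be told apart from less RNA per cell.

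Total counts ran from 65230001 to 70830615 in the libraries labelled KO and from 62854465 to 72005658 in those labelled WT. Pak4, the targeted gene, had 815, 744 and 675 counts in the libraries labelled KO 1, 2 and 3, against 339, 337 and 358 counts in those labelled WT 1, 2 and 3, a log2 fold change of 0.96 ± 0.14 (SE; adjusted p 0.0898 in edgeR, 0.0313 without KO 1 and 8.49e-06 in DESeq2). This goes against the labels, so every direction below is between libraries by label and not between genotypes. The values are totals per gene, in which reads of the floxed exons cannot be separated. Adipoq, the adipocyte hormone adiponectin, had 6948, 10166 and 7935 TPM in the libraries labelled KO and 7166, 6928 and 5952 TPM in those labelled WT. Of 6 epididymal epithelium genes, 3 had 0 counts in all 6 libraries. Crisp1 had 14 counts and Adam7 had 4 counts, in KO 3 alone. Rnase10 had 9, 11 and 11 counts in the libraries labelled KO, against 0, 11 and 0 counts in those labelled WT. Unless stated, values are CPM (counts scaled to library size with TMM factors) in the order of replicates 1, 2 and 3, means carry the SD (n = 3 per group), fold changes (± SE) are on the log2 scale with the label KO on top, and adjusted p is from edgeR's quasi-likelihood test over 17820 genes with a threshold of 0.05.

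Promoter sequence was at hand for 26 of the 39 genes, from 250 bases before to 50 bases after each start in the RefSeq annotation of GRCm38.p6, the assembly of mm10. Each was searched on both strands for the ISRE core (GAAA, any 2 bases, GAAA) and for the GAS (TTC, any 3 bases, GAA). The ISRE core was present for 15 of 26 genes (57.7%), against 3.99% of the 27025 genes with a promoter in the same table. The GAS was present for 7 of 26 (26.9%), against 9.55% of the 27025 genes. The 2 motifs can overlap, as they do in Bst2. A match describes letters in the window and is not a binding site. The genes without a promoter there were Dhx58, Ido1, Ifi27, Ifi27l2a, Mx1, Mx2, Oas1b, Oas2, Parp14, Parp9, Rtp4, Usp18 and Zbp1.

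Promoters are printed for 6 genes that the results below turn on: Irf1, Rsad2 and Ifih1 as genes whose libraries did not overlap between labels, Isg15 as a gene with means that lay close together, and Ifit3 and Ifit3b as a pair of near copies. Capitals mark the GAS in Irf1 and the ISRE core, as read on either strand, in the others.
Irf1 (chr11:53769764-53770063, plus strand): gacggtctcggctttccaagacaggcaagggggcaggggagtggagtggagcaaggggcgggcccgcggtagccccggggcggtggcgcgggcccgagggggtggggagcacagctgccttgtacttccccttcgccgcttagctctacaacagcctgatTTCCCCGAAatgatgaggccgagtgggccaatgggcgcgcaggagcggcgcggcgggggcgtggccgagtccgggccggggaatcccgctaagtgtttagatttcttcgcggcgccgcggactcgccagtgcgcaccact
Rsad2 (chr12:26456403-26456702, minus strand): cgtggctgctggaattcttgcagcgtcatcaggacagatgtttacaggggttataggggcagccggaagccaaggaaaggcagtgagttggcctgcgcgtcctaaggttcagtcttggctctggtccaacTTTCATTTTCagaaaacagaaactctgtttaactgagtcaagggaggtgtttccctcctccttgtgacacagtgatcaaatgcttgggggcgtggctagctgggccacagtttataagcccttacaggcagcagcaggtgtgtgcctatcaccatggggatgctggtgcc
Ifih1 (chr2:62646206-62646505, minus strand): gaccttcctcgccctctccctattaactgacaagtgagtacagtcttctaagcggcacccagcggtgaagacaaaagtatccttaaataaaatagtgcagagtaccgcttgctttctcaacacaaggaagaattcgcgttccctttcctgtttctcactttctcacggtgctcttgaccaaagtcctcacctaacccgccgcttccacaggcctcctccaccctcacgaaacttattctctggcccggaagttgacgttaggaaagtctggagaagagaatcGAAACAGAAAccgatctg
Isg15 (chr4:156200769-156201068, minus strand): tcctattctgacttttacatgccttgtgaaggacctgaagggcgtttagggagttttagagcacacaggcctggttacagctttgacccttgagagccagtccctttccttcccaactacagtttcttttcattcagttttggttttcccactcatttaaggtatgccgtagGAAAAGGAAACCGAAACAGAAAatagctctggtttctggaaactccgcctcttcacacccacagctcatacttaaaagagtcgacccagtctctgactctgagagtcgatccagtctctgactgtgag
Ifit3 (chr19:34583279-34583578, plus strand): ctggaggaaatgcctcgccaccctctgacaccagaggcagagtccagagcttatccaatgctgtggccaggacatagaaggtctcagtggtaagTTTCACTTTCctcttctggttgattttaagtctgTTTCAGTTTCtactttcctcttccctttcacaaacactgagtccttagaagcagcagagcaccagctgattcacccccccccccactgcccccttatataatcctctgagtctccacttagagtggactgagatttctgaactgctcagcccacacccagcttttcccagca
Ifit3b (chr19:34607707-34608006, plus strand): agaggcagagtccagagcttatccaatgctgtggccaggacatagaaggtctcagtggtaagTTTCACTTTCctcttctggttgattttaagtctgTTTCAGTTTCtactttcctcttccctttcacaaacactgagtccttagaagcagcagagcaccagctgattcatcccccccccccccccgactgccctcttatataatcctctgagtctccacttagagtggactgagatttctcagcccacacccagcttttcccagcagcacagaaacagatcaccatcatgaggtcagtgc
The GAS of Irf1 begins 90 bases before the start and the ISRE core of Rsad2 120 bases before it, while that of Ifih1 lies 32 bases after the start. Isg15 holds 3 overlapping ISRE cores in 1 run. Ifit3 and Ifit3b hold the same pair of ISRE cores, which begin 156 and 122 bases before the start in Ifit3 and 188 and 154 bases before it in Ifit3b.

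No interferon-stimulated gene passed the threshold: 0 of the 38 that passed the filter on low counts were higher and 0 lower with edgeR's quasi-likelihood test, against 0% and 0.0168% of the 17820 genes tested. At an unadjusted p under 0.05, 9 of 38 (23.7%) were higher by label and 1 (2.63%) was lower, against 9.66% and 9.71% of all genes tested. Fold changes lay above 0 for 32 of 38 genes (84.2%), against 52.1% of all genes tested, with a median of 0.25, against 0.016 over all genes tested. In 11 of 38 genes every library labelled KO lay above every library labelled WT (13.7% of all genes tested), and in 2 of 38 every one lay below (12.5%). DESeq2 called Irf1, Cmpk2, Rsad2, Ifih1 and Ifi27l2a higher and Ifi27 lower (5 and 1 of 38, against 2.61% and 3.86% of the genes it tested), and limma voom called 0 of 38, against 0.00561% of all genes higher and 0.0224% lower, with 9 higher (9.66% of all genes) and 1 lower at an unadjusted p under 0.05. At that unadjusted p DESeq2 had 11 higher (9.61% of the genes it tested). Without the library labelled KO 1, edgeR called Irf1, Cmpk2 and Gbp7 higher and Ifi27 lower (3 and 1 of 38, against 2.08% and 3.49% of the genes tested then).

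How many genes reached an unadjusted p under 0.05 depended on which library was left out. The number higher was 21 of 38 without KO 1 (13.2% of all genes tested), 5 without KO 2 (5.64%), 7 without KO 3 (4.90%), 10 without WT 1 (8.79%), 6 without WT 2 (6.96%) and 7 without WT 3 (6.45%). Apart from the fit without KO 1, edgeR called 0 of the 38 in these fits. The share of all genes it called lower in them was 0.0109% without KO 2, 0.00554% without KO 3, 0.0272% without WT 1, 0.00548% without WT 2 and 0.00547% without WT 3, and it called 0% higher. With scaling by library size alone 18 of 38 were higher at the unadjusted p (18.2% of all genes), and 0 were called (0.00561% of all genes higher and 0.0168% lower). With the replicate number as a block 8 of 38 were higher (7.70% of all genes), and 0 were called (0.00561% of all genes lower).

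**Figure D1:**
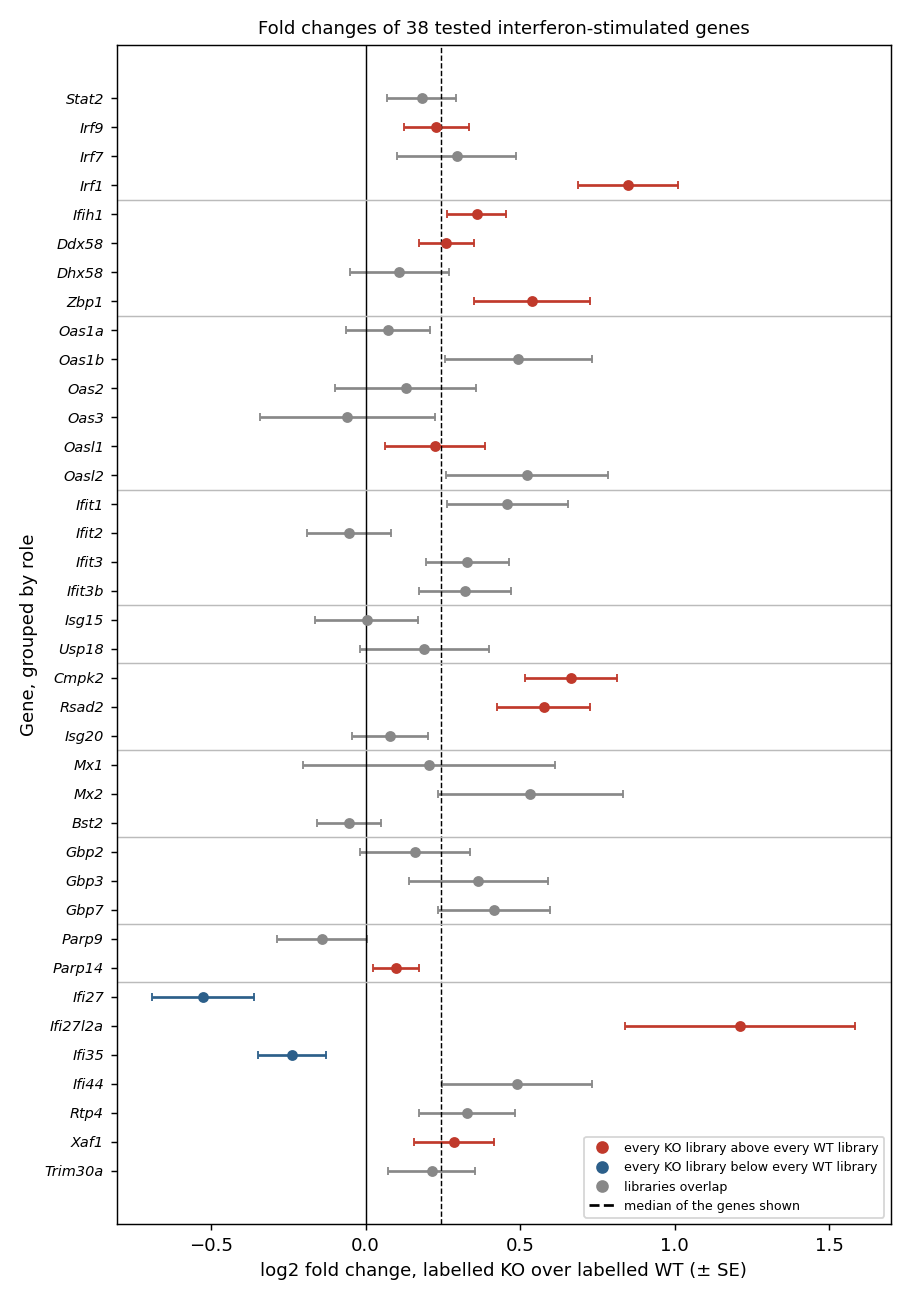
Log2 fold changes of 38 interferon-stimulated genes, libraries labelled KO over libraries labelled WT, with SE bars (n = 3 per group), in rows grouped by role. Red points mark the 11 genes whose libraries labelled KO lay above all those labelled WT and blue points the 2 genes whose libraries labelled KO lay below; the dashed line is the median of 0.25.

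The genes that carry the interferon signal were led by Irf1, which encodes a transcription factor induced by interferon gamma. Irf1 had 31.7, 48.3 and 43.2 CPM in the libraries labelled KO, against 20.3, 24.6 and 23.5 CPM in those labelled WT. The lowest library labelled KO, KO 1, stood above the highest labelled WT, WT 2. The means were 41.1 ± 8.47 CPM (labelled KO) and 22.8 ± 2.25 CPM (labelled WT), a fold change of 0.85 ± 0.16 with an adjusted p of 0.119 in edgeR, the smallest p among the 39 genes, and the adjusted p was 0.0240 without KO 1 and 7.42e-04 in DESeq2. Irf9, the DNA-binding partner of STAT2, had 21.00, 24.2 and 23.6 CPM in the libraries labelled KO, against 20.9, 17.7 and 20.1 CPM in those labelled WT (0.23 ± 0.10, adjusted p 0.273). The groups did not overlap, but KO 1 and WT 1 were almost level. Stat2 had 18.7, 23.03 and 22.03 CPM in the libraries labelled KO, against 19.4, 17.3 and 19.5 CPM in those labelled WT (0.18 ± 0.11), and Irf7, the amplifier of type I interferon production, 16.96, 22.4 and 22.4 CPM in the libraries labelled KO, against 21.6, 14.4 and 14.4 CPM in those labelled WT (0.29 ± 0.19). In both, KO 1 lay below WT 1 and the groups overlapped. The first Irf1 promoter holds a GAS and no ISRE core, the Stat2 promoter an ISRE core, and those of Irf7 and Irf9 neither.

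Sensors of viral nucleic acid in the cytosol lay above 0 as a group, with all 4 fold changes between 0.11 and 0.54. Ifih1, which encodes the long double-stranded RNA sensor MDA5, had 29.6, 33.6 and 32.3 CPM in the libraries labelled KO, against 27.1, 23.4 and 23.9 CPM in those labelled WT. Ddx58, which encodes the RNA sensor RIG-I, had 29.8, 32.7 and 29.1 CPM in the libraries labelled KO, against 23.9, 26.6 and 25.8 CPM in those labelled WT. In both genes every library labelled KO stood above every library labelled WT, by a margin that was small beside the level of the gene. The fold changes were 0.36 ± 0.095 (adjusted p 0.155 in edgeR, 0.0455 in DESeq2) for Ifih1 and 0.26 ± 0.088 (adjusted p 0.194) for Ddx58. Zbp1, which encodes a sensor of left-handed nucleic acid that can trigger cell death, had 5.59, 8.34 and 6.00 CPM in the libraries labelled KO, against 5.17, 4.40 and 4.14 CPM in those labelled WT (0.54 ± 0.19, adjusted p 0.199), again without overlap and with KO 2 the highest. Dhx58, a relative of both RNA sensors without a signalling domain, overlapped between labels (0.11 ± 0.16).

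**Figure D2:**
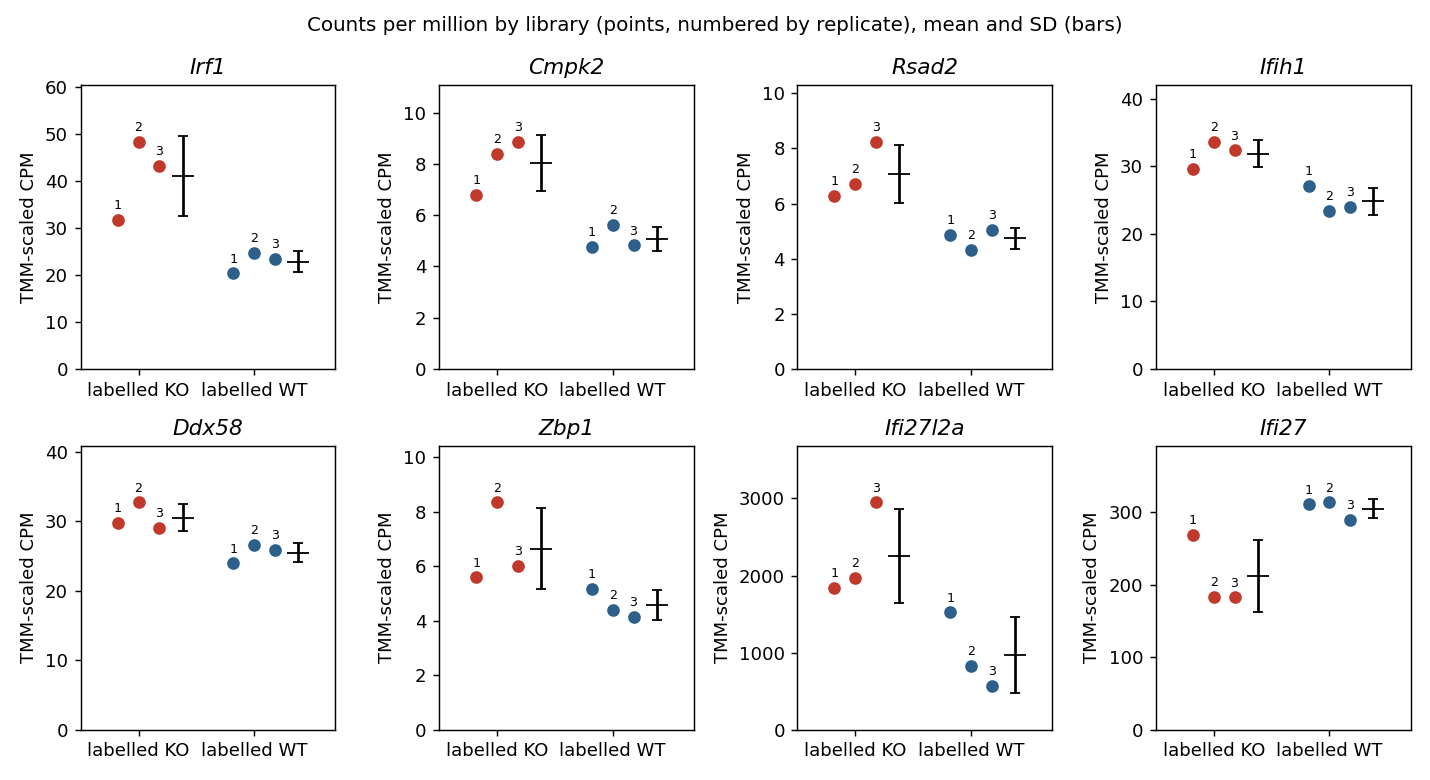
TMM-scaled CPM of 8 genes in each library (numbered points), libraries labelled KO left and labelled WT right, with mean and SD beside them; each vertical axis starts at 0. In all 8 panels the groups do not overlap: 7 genes are higher in every library labelled KO, and Ifi27 is lower, with KO 1 at 269 CPM and the other two near 183 and 182 CPM. These 8 genes had the smallest p in edgeR among the tested genes, so their separation partly follows from that choice.

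Cmpk2 and Rsad2 had the smallest p in edgeR after Irf1. They are neighbours on chromosome 12, read away from each other, and their GENCODE models are separated by 12751 bases. Cmpk2 encodes a mitochondrial nucleotide kinase, and Rsad2 encodes viperin, which turns CTP into a nucleotide that stops viral RNA synthesis. Cmpk2 (RefSeq model on chromosome 12, 26469117 to 26479837 in mm10) had 6.79, 8.41 and 8.87 CPM in the libraries labelled KO, against 4.75, 5.61 and 4.83 CPM in those labelled WT. Rsad2 (RefSeq model on chromosome 12, 26442743 to 26456452) had 6.27, 6.70 and 8.24 CPM in the libraries labelled KO, against 4.86, 4.31 and 5.05 CPM in those labelled WT. In both genes the groups stood apart, with KO 1 the lowest on the upper side. The fold changes were 0.66 ± 0.15 (adjusted p 0.135 in edgeR) and 0.58 ± 0.15 (adjusted p 0.153), and DESeq2 gave adjusted p of 0.00815 and 0.0267. An ISRE core was found before Rsad2 and not in the window of Cmpk2. Isg20, an RNA exonuclease, had 33.01, 28.9 and 30.5 CPM in the libraries labelled KO, against 32.4, 24.4 and 30.7 CPM in those labelled WT (0.079 ± 0.12), with overlap, and its sign turned to -0.032 without WT 2.

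The 4 IFIT genes lie side by side on chromosome 19, with gaps of 7111, 19238 and 27469 bases between their GENCODE models. Some proteins of this family bind foreign RNA ends and hold back translation. Ifit1 had 7.71, 9.86 and 9.97 CPM in the libraries labelled KO, against 8.31, 5.12 and 6.64 CPM in those labelled WT (0.46 ± 0.20, adjusted p 0.255), and Ifit3 had 16.8, 19.7 and 21.2 CPM in the libraries labelled KO, against 13.99, 14.2 and 17.7 CPM in those labelled WT (0.33 ± 0.13, adjusted p 0.240). In Ifit1 the library WT 1 lay above KO 1, and in Ifit3 WT 3 did, so both overlapped. Ifit3b stood at 0.32 ± 0.15, close to Ifit3. The longest coding transcripts of Ifit3 and Ifit3b are 97.8% identical over 1700 bases, so reads may be shared between them and their counts are uncertain. The RefSeq model of Ifit1bl1 also spans Ifit1 and Ifit3b. Ifit2, the fourth gene of the cluster, stood at -0.054 ± 0.14, with overlap. Its 2 promoter windows hold no ISRE core, while those of Ifit1, Ifit3 and Ifit3b do.

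The 6 genes of the oligoadenylate synthetase family make or resemble enzymes that make the second messenger which activates RNase L. Their fold changes ran from -0.06 to 0.52 and 0 had an unadjusted p under 0.05 in edgeR. Oasl2, the most abundant per length of the 6, had 28.5, 40.7 and 50.4 CPM in the libraries labelled KO, against 36.4, 21.1 and 25.8 CPM in those labelled WT (0.52 ± 0.26). KO 1 lay below WT 1 while KO 2 and KO 3 exceeded every library labelled WT. Oas1b, listed as a transcribed pseudogene in the deposited table, stood at 0.49 ± 0.24. Oas2 had 8.67, 12.4 and 11.97 CPM in the libraries labelled KO, against 12.98, 7.27 and 9.91 CPM in those labelled WT (0.13 ± 0.23), where WT 1 was the highest of the 6 libraries. Oasl1, which represses translation of Irf7, did not overlap between labels at 0.22 ± 0.16, and its values stayed within 2.71 to 3.21 CPM (labelled KO) and 2.56 to 2.66 CPM (labelled WT). Oas1a (0.072 ± 0.14) is 97.6% identical to Oas1g over 1861 bases and uncertain for that reason, and Oas3 stood at -0.059 ± 0.28. Oas3 also shares a short stretch with many other transcripts. The sign of Oas1a, Oas2 and Oas3 changed in at least 1 of the 14 alternatives, as did that of Ifit2, Dhx58, Isg15 and Mx1.

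Isg15, a ubiquitin-like modifier that is attached to other proteins, differed little between labels. It had 3.61, 4.45 and 4.28 CPM in the libraries labelled KO, against 4.72, 4.03 and 3.57 CPM in those labelled WT, or 4.11 ± 0.443 CPM (labelled KO) and 4.11 ± 0.577 CPM (labelled WT) (0.0033 ± 0.17, adjusted p 0.994). WT 1 was the highest library and WT 3 the lowest. Isg15 is 95.2% identical over 482 bases to AC151275.1, so its counts are uncertain. Usp18, the protease that removes ISG15 and also blocks the interferon receptor, had 3.52, 5.25 and 5.17 CPM in the libraries labelled KO, against 4.19, 3.36 and 4.68 CPM in those labelled WT (0.19 ± 0.21). Mx1 and Mx2, dynamin-like antiviral GTPases, are transcribed pseudogenes in the deposited table; C57BL/6 mice are known to lack functional Mx proteins. Mx1 had 1.28, 1.41 and 1.44 CPM in the libraries labelled KO, against 0.490, 1.57 and 1.52 CPM in those labelled WT, with WT 1 far below the other 5 libraries (0.20 ± 0.41), and Mx2 stood at 0.53 ± 0.30. Stretches of Mx1 and Mx2 are 94.8% identical over 920 bases, so both are uncertain. Bst2, which encodes tetherin, the protein that holds budding virus to the cell, had 26.9, 30.3 and 25.6 CPM in the libraries labelled KO, against 29.2, 30.7 and 26.04 CPM in those labelled WT (-0.053 ± 0.10), with overlap. Its sign turned to 0.069 with scaling by library size alone and to 0.0022 without WT 2.

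The guanylate-binding proteins, GTPases that attack pathogen vacuoles and answer strongly to interferon gamma, were highest in KO 2. Gbp7 had 20.8, 35.5 and 29.4 CPM in the libraries labelled KO, against 21.9, 22.1 and 20.2 CPM in those labelled WT (0.42 ± 0.18, adjusted p 0.261, and 0.0381 without KO 1, with a fold change of 0.60). KO 2 and KO 3 exceeded every library labelled WT, and KO 1 lay among them. Gbp7 is identical over 637 bases to the annotated gene Gm43802, so its counts are uncertain. In Gbp3, too, KO 2 and KO 3 exceeded every library labelled WT, and KO 1 was the lowest of the 6 (0.37 ± 0.23). Gbp2, the most abundant of the 3 per length, had 61.4, 94.02 and 64.8 CPM in the libraries labelled KO, against 59.5, 75.7 and 61.8 CPM in those labelled WT (0.16 ± 0.18), where WT 2 exceeded KO 1 and KO 3, and its sign turned to -0.060 without KO 2. Ido1, which breaks down tryptophan and is another classical target of interferon gamma, did not pass the filter. Its read count was 9, 9 and 11 in the libraries labelled KO and 0, 0 and 0 in those labelled WT. The mean labelled KO was 2.88 times a floor of 3 counts in each library labelled WT. That ratio is no lower bound, since it allows for no error in the counts labelled KO. Without the filter its unadjusted p in edgeR was 0.00435 and its adjusted p 0.174.

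Ifi27l2a, which encodes a small hydrophobic membrane protein, was the most abundant interferon-stimulated gene. It had 7447, 8366 and 11889 TPM in the libraries labelled KO and 6004, 3121 and 2345 TPM in those labelled WT, and ranked between 8 and 45 among all genes of a library by TPM. It took 88.2%, 89.6% and 93.1% of the summed TPM of the 39 genes in the libraries labelled KO, against 85.2%, 75.7% and 69.5% in those labelled WT. In CPM it had 1837, 1968 and 2948 CPM in the libraries labelled KO, against 1521, 823 and 572 CPM in those labelled WT. Every library labelled KO exceeded every library labelled WT, but WT 1 lay closer to KO 1 than to WT 3. The fold change of 1.21 ± 0.37 was the highest fitted value of the 38 genes, with an adjusted p of 0.177 in edgeR and 0.00844 in DESeq2.

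Ifi27, a mitochondrial and nuclear envelope protein of the same family, ran the other way. It had 269, 183 and 182 CPM in the libraries labelled KO, against 311, 313 and 289.8 CPM in those labelled WT, so every library labelled KO lay below every one labelled WT. The fold change was -0.53 ± 0.16, the most negative of the 38 genes (adjusted p 0.177 in edgeR, 0.0245 without KO 1 and 0.0410 in DESeq2). The RefSeq models of Ifi27l2a (chromosome 12, 103433873 to 103443680) and Ifi27 (chromosome 12, 103434189 to 103440245) overlap over 6057 bases, while their GENCODE models lie 1927 bases apart; they are read from opposite strands. The sources used here do not say whether counting used strand, so both genes' counts are uncertain. Ifi35, which forms a complex with another interferon-induced protein, was also lower in every library labelled KO, at 17.2, 14.4 and 16.2 CPM in the libraries labelled KO, against 17.4, 20.5 and 18.4 CPM in those labelled WT (-0.24 ± 0.11, adjusted p 0.275).

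Of the remaining genes, Xaf1, which encodes a pro-apoptotic factor, had 9.71, 12.6 and 12.6 CPM in the libraries labelled KO, against 9.70, 9.47 and 9.42 CPM in those labelled WT (0.29 ± 0.13, adjusted p 0.269). The libraries labelled WT and KO 1 were almost level, and KO 2 and KO 3 stood apart above them. Ifi44 (0.49 ± 0.24), Rtp4 (0.33 ± 0.15), which encodes a receptor transporter, and Trim30a (0.21 ± 0.14), which encodes a ubiquitin ligase, had the same order, with KO 1 the lowest library labelled KO and inside the range of those labelled WT or below it. Parp9, an ADP-ribosyltransferase family member that works with DTX3L, had 78.5, 69.2 and 63.9 CPM in the libraries labelled KO, against 63.5, 91.8 and 77.99 CPM in those labelled WT (-0.14 ± 0.15), with overlap, and it shares 558 bases with Dtx3l in RefSeq. Parp14, an enzyme of the same family, had 47.7, 47.9 and 47.5 CPM in the libraries labelled KO, against 43.03, 44.6 and 46.02 CPM in those labelled WT (0.099 ± 0.074). It did not overlap between labels, and its highest library labelled KO was 1.01 times its lowest, the smallest such ratio among the 38 tested genes.

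Per length, the 39 genes spanned a wide range of levels. By mean deposited TPM over 6 libraries, Ifi27l2a and Ifi27 exceeded 100 TPM, 16 genes lay between 10 and 100, 17 between 1 and 10, and Oas3, Mx1, Mx2 and Ido1 under 1, with a median of 8.88 TPM. Bst2 (65.1 TPM), Gbp2 (53.1 TPM), Isg20 (51.8 TPM) and Parp9 (42.2 TPM) followed the first pair. None of these 4 had an unadjusted p under 0.05 in edgeR. Without Ifi27l2a, the summed level was 1000.1, 974 and 881 TPM in the libraries labelled KO, against 1042, 1002 and 1030.1 TPM in those labelled WT. That sum was lower in each library labelled KO, though KO 1 and WT 2 were almost level. Ifi27, its largest part, had 513, 363 and 343 TPM in the libraries labelled KO, against 573, 559 and 560 TPM in those labelled WT. The counts of Ifi27 are uncertain, and the sum does not describe the other genes. Of the single fold changes, 32 of 38 lay above 0. In RefSeq, 15 of the 39 genes overlap another gene. Of these, Stat2, Ifit1, Ifit3b, Parp9, Ifi27, Ifi27l2a and Rtp4 (7 of 39) overlap a protein-coding gene, so their counts are uncertain. These overlaps were found without strand, so whether counting by strand would separate the reads was not tested. In GENCODE, Irf9 overlaps Rnf31 on the same strand and Irf7 overlaps Phrf1 on the opposite strand. Parp14 overlaps Gm49730 and Rtp4 overlaps Gm45338 on the same strand. Irf1 overlaps Gm17334 on the opposite strand, and Oas2, Oasl1 and Ifi35 overlap other annotated genes there. All these counts are uncertain too.

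**Figure D3:**
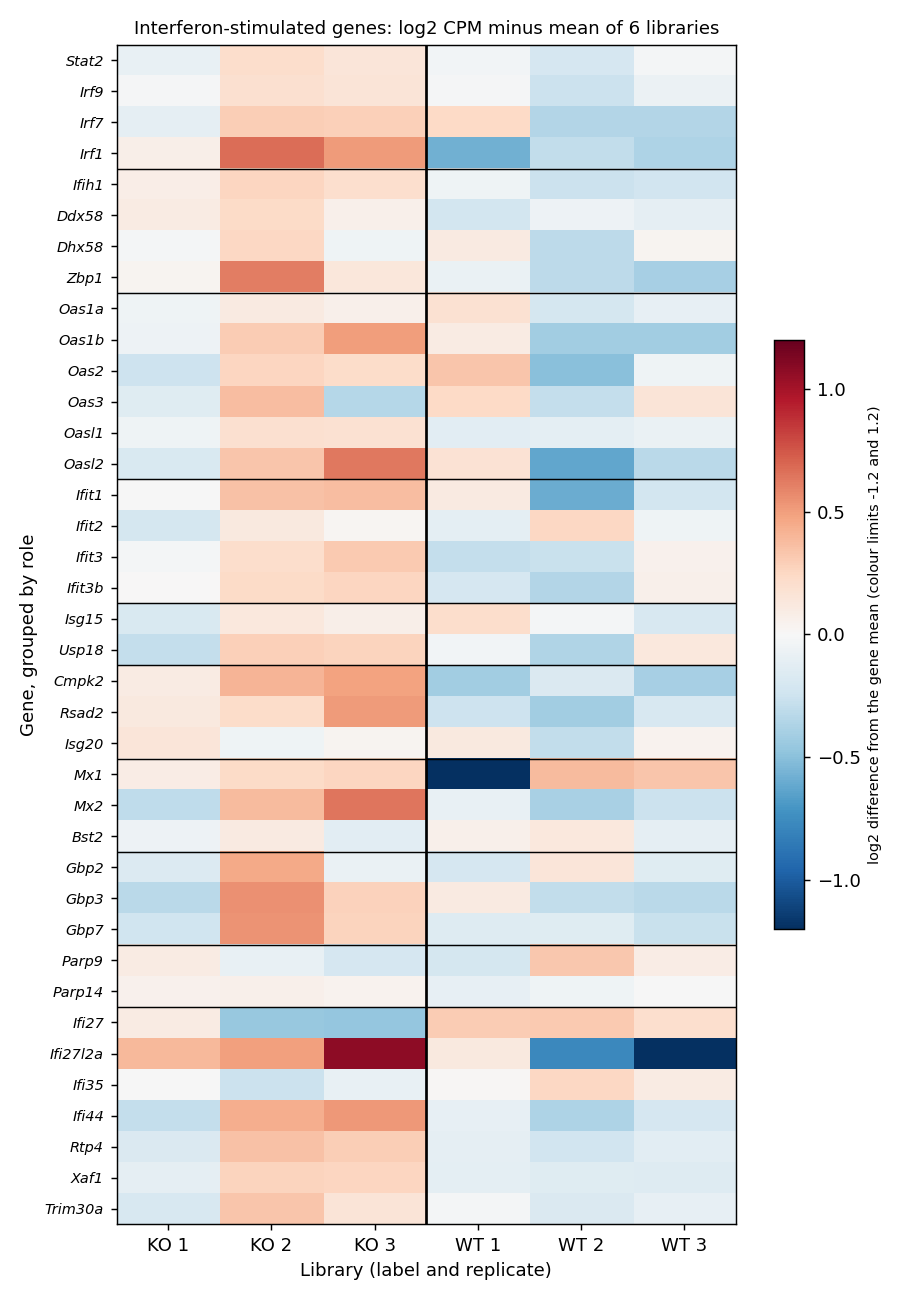
Log2 CPM of 38 genes (rows, grouped by role) in the 3 libraries labelled KO (left) and the 3 labelled WT (right), each as the difference from its mean over 6 libraries; red is higher and blue lower. KO 2 and KO 3 are red in most rows, KO 1 is pale or blue in most, and Ifi27l2a and Ifi27 show opposite colours in KO 2, KO 3, WT 2 and WT 3.

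The libraries of a group were not alike for these genes. KO 1 was the lowest library labelled KO for 29 of 38 genes (76.3%), against 39.1% of all genes tested, and KO 2 the highest for 23 of 38 (60.5%), against 27.3%. Among the libraries labelled WT, WT 1 was the highest for 20 of 38 (52.6%), against 34.5% of all genes tested, and WT 2 the lowest for 19 (50.0%), against 37.2%. Set pair by pair, KO 1 exceeded WT 1 for 17 of 38 genes, WT 2 for 27 and WT 3 for 21, where 50.6% to 52.0% of all genes tested were higher in KO 1. KO 2 exceeded the libraries labelled WT for 32 or 33 of 38 and KO 3 for 29 or 30. The median fold change of the 38 genes was 0.35 without KO 1 and 0.19 without KO 2. On the first principal component of the 1000 most variable genes, KO 1 (-2.01) and WT 1 (-2.73) lay next to each other between KO 2 (18.7) and KO 3 (23.7) on one side and WT 2 (-27.0) and WT 3 (-10.7) on the other.

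**Figure D4:**
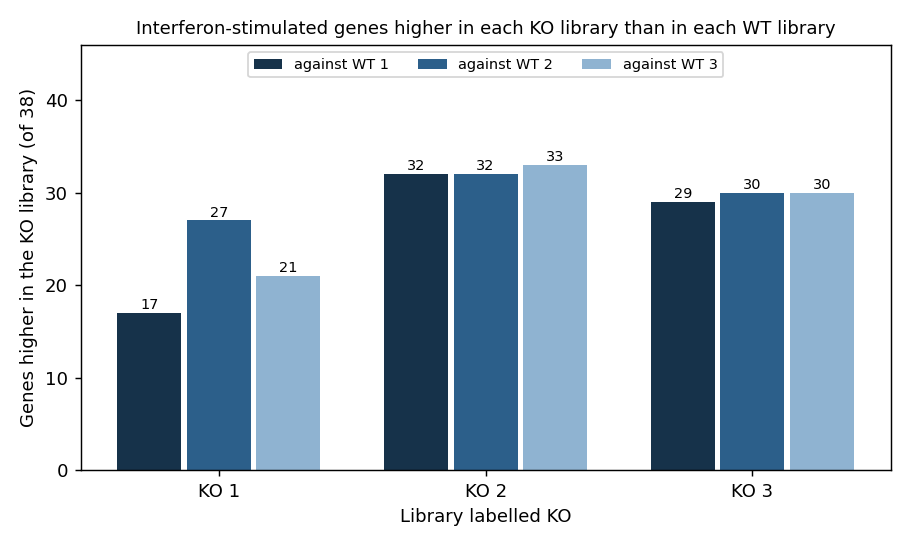
Number of the 38 tested interferon-stimulated genes with a higher CPM in each library labelled KO (groups of bars) than in each library labelled WT (shades). The bars of KO 1 reach 17, 27 and 21 genes, those of KO 2 reach 32 or 33 and those of KO 3 reach 29 or 30.

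Transcripts of the 10 interferon ligand genes looked at were close to absent. The Ifna genes among them were Ifna1, Ifna2, Ifna4 and Ifna5 only. Of 10 ligand genes, 8 had 0 counts in all 6 libraries, which by a floor of 3 counts allows up to 0.0403 to 0.0490 CPM per library; such floors cover counting error only. Ifng had 4, 13 and 2 counts in the libraries labelled KO and 0, 6 and 0 counts in those labelled WT, and Ifne 2 counts in KO 3. Ifnlr1, the receptor chain of lambda interferons, stood at 0.57 ± 0.23, with 1.26, 1.28 and 1.19 CPM in the libraries labelled KO, against 0.963, 0.686 and 0.864 CPM in those labelled WT and no overlap (adjusted p 0.240 in edgeR). Ifngr2, a chain of the interferon gamma receptor, stood at -0.37 ± 0.21, with overlap.

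Genes that sense nucleic acid or induce interferon had 18 of 18 fold changes above 0, against 52.1% of all genes tested (median 0.18, range 0.0013 to 0.77). Irf8 (0.0013 ± 0.15) and Ticam1 (0.0014 ± 0.12) were level between labels. The count of signs in this list was not repeated under other scalings. Of these, 0 passed in edgeR and 4 were higher at an unadjusted p under 0.05, against 9.66% of all genes tested. Irf5, a transcription factor of macrophage activation, had 19.7, 24.9 and 24.3 CPM in the libraries labelled KO, against 17.2, 17.3 and 17.2 CPM in those labelled WT (0.41 ± 0.11). Trex1, an exonuclease that clears cytosolic DNA, stood at 0.77 ± 0.23 and Myd88, the adaptor of most Toll-like receptors, at 0.31 ± 0.10, both without overlap. Of 8 feedback inhibitors, 0 passed, 4 were higher and 1 lower at an unadjusted p under 0.05, against 9.66% and 9.71% of all genes tested, with a median of 0.12. Trim21, a ubiquitin ligase and antibody receptor, stood at 0.75 ± 0.15, Ptpn6, the phosphatase SHP-1, at 0.46 ± 0.13, and Trim24 at -0.35 ± 0.084. Of 40 further interferon-stimulated genes, 0 passed, 16 were higher and 1 lower at an unadjusted p under 0.05 (9.66% and 9.71% of all genes tested), and 16 lay above without overlap (13.7% of all genes tested), with a median of 0.36. The leading ones were Parp12 (0.42 ± 0.093), Ddx60 (0.72 ± 0.16), an RNA helicase, and Gbp8 (0.98 ± 0.25). Of each of these lists, only the 3 genes with the smallest p were followed into other fits. Among those, DESeq2 called Irf5, Trex1, Trim21, Parp12, Ddx60 and Gbp8 higher and Trim24 lower. It called 2.61% of all genes it tested higher and 3.86% lower. Without KO 1, edgeR called Irf5, Trim21, Parp12 and Ddx60 (2.08% of all genes tested then were higher and 3.49% lower). These genes were picked by p from the same data, so the calls do not describe the whole lists.

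Markers of other cell types also differed in level by label, and their part in the values above was not tested. Over all genes tested, 52.1% of fold changes lay above 0, and 9.66% were higher and 9.71% lower at an unadjusted p under 0.05. All 12 macrophage markers had fold changes above 0 (median 0.29, 4 higher and 0 lower at an unadjusted p under 0.05), and their summed level ran from 2630 to 3571 TPM in the libraries labelled KO and from 2470 to 2965 TPM in those labelled WT. KO 1 had the lowest sum of the libraries labelled KO, below WT 2. Trem2, a receptor of lipid-laden macrophages, had 18.7, 31.8 and 33.4 CPM in the libraries labelled KO, against 11.6, 13.3 and 16.6 CPM in those labelled WT (1.01 ± 0.24). Of 8 dendritic cell markers 5 lay above 0 (median 0.11). Their sums were 31.0 to 34.8 TPM (labelled KO) and 26.2 to 32.8 TPM (labelled WT). Siglech, a gene of plasmacytoid dendritic cells, stood at 0.94 ± 0.23, without overlap. It had 5.75, 8.72 and 9.97 CPM in the libraries labelled KO, against 5.06, 4.04 and 3.60 CPM in those labelled WT. The rest of the list did not follow it as a whole. Tcf4 (0.076 ± 0.098) and Ccr9 (0.93 ± 0.91) overlapped, and Flt3, Clec9a and Cd209a lay below 0. All 8 B and plasma cell markers lay above 0 (median 0.55), with sums of 36.1 to 49.0 TPM (labelled KO) and 13.9 to 32.1 TPM (labelled WT), and all 8 mesothelial markers did (median 0.53), with sums of 691 to 872 TPM (labelled KO) and 409 to 700.1 TPM (labelled WT). Of 10 T and NK cell markers, 5 lay above and 5 below 0 (median 0.0058), with sums of 9.02 to 18.9 TPM (labelled KO) and 8.20 to 15.05 TPM (labelled WT).

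Endothelial markers went the other way, with 7 of 8 below 0 (median -0.57, 6 lower at an unadjusted p under 0.05, against 9.71% of all genes tested) and sums of 122 to 130.5 TPM in the libraries labelled KO, against 148 to 194 TPM in those labelled WT. Of 12 mature adipocyte markers 3 lay above and 9 below 0 (median -0.22). Their sums were 97762 to 103501 TPM (labelled KO) and 84695 to 98667 TPM (labelled WT). Cfd alone had 27197, 32768 and 37510 TPM in the libraries labelled KO, against 22643, 8822 and 14766 TPM in those labelled WT. The sums thus depend on Cfd and are no measure of adipocyte content. Progenitor and fibroblast markers had a median of 0.11, with sums of 2772 to 4211 TPM (labelled KO) and 2488 to 2835 TPM (labelled WT). Of 5 tested neutrophil markers 4 lay above and 1 below 0 (median 0.53), with sums of 23.8 to 29.2 TPM (labelled KO) and 20.4 to 38.4 TPM (labelled WT). The marker below 0 was S100a8, a neutrophil alarmin with the smallest p of the list, which had 1.58, 1.55 and 0.846 CPM in the libraries labelled KO, against 2.204, 5.92 and 3.90 CPM in those labelled WT (-1.60 ± 0.40, adjusted p 0.147 in edgeR), without overlap. Ly6g, a defining neutrophil gene, had 0 counts in all 6 libraries.

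The fold changes were also set beside the promoter motifs. Of the 15 genes with an ISRE core, 13 lay above 0, with a median of 0.26, and of the 11 without it, 9 lay above 0, with a median of 0.29. Of the 7 with a GAS, 4 lay above 0 (median 0.072), and of the 19 without, 18 did (median 0.29). No test was made of these differences, since the genes share libraries and gene families.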

How the data were processed

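Messenger RNA from excised fat pads was sequenced with a stranded mRNA kit, per the labels' protocols. The submitters' processing notes name HISAT2 2.1.0, Bowtie2 2.3.4.1, StringTie 2.1.3b and the build mm10, without roles; strand use and multi-mapped reads are not given in the sources used here. The authors deposited read counts, whole numbers without normalization per the file headers, which entered every test. The authors' FPKM values, scaled for length and depth and named in the file headers, were not used further. The authors' deposited TPM values, scaled for length and to nearly the same sum in each library, gave levels between genes.

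Libraries were grouped by title. Counts were filtered (filterByExpr, minimum count 10, total 15), scaled by TMM and fitted on the label in edgeR 4.0.16 (R 4.3.3) with robust quasi-likelihood and Benjamini-Hochberg adjustment over 17820 genes. SE is the fold change over the square root of F. DESeq2 1.42.0 and limma 3.58.1 voom were alternatives, as were other scalings, filters, a replicate block and leaving out each library. The counts over interferon receptor and kinase genes are not reported here. No pair of libraries agreed within sampling noise (lowest chi-square 46.9 per degree of freedom). At these depths 3 counts equal 0.0403 to 0.0490 CPM. Transcript identity came from blastn 2.17.0 on GENCODE M21. The gene set and lists were chosen with earlier results of these data known. Values per library are given for the 14 genes with the smallest p, the 6 most abundant, Stat2, Irf9, Irf7, Irf1 and the most negative fold change, and, of each further list, up to 3 genes with the smallest p. Oasl2, Oas2, Isg15, Usp18, Mx1, Parp14, Ido1, Adipoq, Crisp1, Adam7 and the interferon ligands were added after their values were seen.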

Additional observations from a re-analysis of the deposited data

How the results depend on the processing

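Over 14 alternatives, the median fold change of the interferon-stimulated genes stayed above 0, from 0.19 without KO 2 to 0.37 with scaling by library size alone. That scaling moved the median of all genes tested to 0.13, so the genes' median stood 0.23 above it, as with TMM, and it gave 18 genes higher at an unadjusted p under 0.05. DESeq2 called 1152 genes, 5 of these genes higher and 1 lower, limma voom called 5 genes in all, and the replicate block 1. With 1 library left out, edgeR called 1 to 1016 genes in all, 0 to 3 of these genes higher and 0 to 1 lower, and at an unadjusted p under 0.05 had 5 to 21 higher and 0 to 2 lower, the highest counts being without KO 1. Among the genes chosen by rule, signs were reversed for Bst2 (0.069 with library size alone, and -0.13 to 0.0022 with 1 library left out), Gbp2 (-0.060 to 0.28) and Isg20 (-0.032 to 0.16). The sign also changed in at least 1 alternative for Ifit2, Oas1a, Oas2, Oas3, Dhx58, Isg15 and Mx1. Deviations of same-numbered libraries from their group means had correlations of -0.34, -0.066 and -0.0046 across genes. Each library labelled KO correlated best with another number: KO 1 with WT 2 (0.299), KO 2 with WT 1 (0.0746) and KO 3 with WT 1 (0.348). Deviations within a group of 3 depend on one another, so these values cannot show whether the numbers pair the libraries. Under the replicate block 8 genes were higher and 1 lower at an unadjusted p under 0.05 in edgeR, and 0 were called. The cause of these differences was not tested. Groups of 3 libraries limit precision, while total counts were 62854465 or more in each library. The SE was highest for Mx1 (0.41) and Ifi27l2a (0.37) among the 38 tested genes.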
